A study of Mus musculus with 18 samples.

Results

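The unfolded protein response genes described here are 34 genes listed by symbol that act when unfolded proteins build up in the endoplasmic reticulum (ER), the compartment where secreted and membrane proteins are folded. They comprise 14 chaperones and folding enzymes, 7 genes of ER-associated degradation, 2 subunits of the translocon (the pore through which new proteins enter the ER), 4 stress sensors, 3 stress transcription factors and 4 targets of those factors. All 34 were found in the count tables, among 14987 genes in the colon and 15193 in the spinal dorsal horn, and all 34 passed the expression filter that left 13445 and 13609 genes for testing. Transcripts were counted in colon and dorsal horn of wild-type mice. The nivolumab group had a bone cancer and received nivolumab, an antibody raised to human PD-1, which restrains T cells; the cancer group had the bone cancer and received control IgG; the sham group had sham surgery and received control IgG. Each group had 3 libraries per tissue, 18 in all. The strain, sex, age, tumour cells, doses and times were not given in the sources used here. Nothing states that the libraries of a group came from separate animals, so p-values reflect the spread between libraries only, and part of that spread may be technical.

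Newly made proteins enter the ER through the translocon and are folded by chaperones such as BiP (Hspa5), and those that fail to fold are pulled back into the cytosol and degraded. When folding falls behind, membrane sensors start the unfolded protein response. IRE1 (Ern1, and Ern2 in epithelia that secrete mucus) splices the messenger of Xbp1, ATF6 is cut to release a transcription factor, and PERK (Eif2ak3) slows translation while the messenger of Atf4 is translated more. XBP1 and ATF6 drive chaperone and degradation genes, and ATF4 drives genes of amino acid supply and, with CHOP (Ddit3), of cell death. Plasma cells and goblet cells of the colon carry a heavy secretory load, whereas the dorsal horn, which receives sensory input from the body, is nervous tissue. Splicing of Xbp1, cleavage of ATF6 and translation of Atf4 are not seen in counts per gene.

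Promoter sequences show which members share the letters that these factors are known to read. RefSeq promoters of GRCm38.p6, from 250 bases before to 50 bases after the start, were found for 28 of the 34 members; Manf, Hyou1, Derl1, Sec61a1, Ern2 and Atf6 had no entry. Both strands were searched, and each promoter was counted once per motif. The ER stress response element (ERSE), which is CCAAT followed after any 9 bases by CCACG and is read by ATF6 and XBP1 together with the CCAAT-binding factor NF-Y, was in 9 of the 28 promoters, against 37 of 27025 genes (0.137%). Of the 12 chaperone promoters 7 held it (Hspa5, Hsp90b1, Calr, Canx, Pdia6, Dnajc3 and Creld2), as did 2 of the 6 degradation promoters (Syvn1 and Derl3) and none of the promoters of the other roles. The lines below show 6 of these sites, chosen because their genes are the most abundant chaperones or are described by library further on; capitals mark the element, which starts with CGTGG and ends with ATTGG where it lies on the other strand.
Hspa5: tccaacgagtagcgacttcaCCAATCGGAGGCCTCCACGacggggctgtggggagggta
Hsp90b1: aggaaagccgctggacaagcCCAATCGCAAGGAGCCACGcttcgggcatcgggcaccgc
Hsp90b1: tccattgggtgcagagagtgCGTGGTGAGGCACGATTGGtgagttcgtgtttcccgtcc
Calr: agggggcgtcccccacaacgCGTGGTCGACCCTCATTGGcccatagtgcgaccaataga
Canx: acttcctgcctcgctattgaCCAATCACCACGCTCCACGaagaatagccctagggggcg
Derl3: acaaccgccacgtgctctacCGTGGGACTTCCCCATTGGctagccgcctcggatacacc
The Hspa5 stretch is chr2:34772005-34772063 on the plus strand, with the element 65 to 47 bases upstream of the RefSeq start. Hsp90b1, on the minus strand, had a pair of elements, in chr10:86705618-86705676 (212 to 194 bases upstream) and chr10:86705513-86705571 (107 to 89 bases upstream). The Calr stretch is chr8:84847055-84847113 (minus strand, 162 to 144 bases upstream), that of Canx is chr11:50325780-50325838 (minus strand, 145 to 127 bases upstream), and that of Derl3 is chr10:75893222-75893280 (plus strand, 156 to 138 bases upstream). The CCAAT and CCACG ends are fixed by the search, and the spacer between them differed from gene to gene.

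A related element, ERSE-II, is ATTGG followed after any 1 base by CCACG. It was in the promoters of Dnajb11, an ER co-chaperone, and Herpud1, a scaffold of the degradation machinery, and in 12 of all 27025 genes (0.0444%). The C/EBP-ATF response element TGATGNAA, the kind of site that ATF4 binds, was in Herpud1 and in 3 of the 4 stress targets, namely Trib3, Asns and Chac1, against 1219 of 27025 genes (4.51%). The element TGACGTGG (UPRE) was in none of the members' promoters and in 193 genes (0.714%). ERSE and ERSE-II share the letters CCACG and were counted separately. One stretch of each is shown because these genes belong to the degradation and stress target roles; capitals mark ERSE-II in Herpud1 and the C/EBP-ATF element in Chac1, where it reads TTNCATCA on the strand shown.
Herpud1: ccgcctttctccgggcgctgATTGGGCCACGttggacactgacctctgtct
Chac1: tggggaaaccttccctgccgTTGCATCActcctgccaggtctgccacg
The Herpud1 stretch is chr8:94386357-94386407 (plus strand, element 52 to 42 bases upstream) and the Chac1 stretch is chr2:119351029-119351076 (plus strand, element 193 to 186 bases upstream). A match describes these letters only, and no binding was measured. The elements, ERSE included, were searched because factors of this response are known to read them. A higher share among the members is therefore not an independent finding.

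Each colon library held 20896854 to 30803957 counts and each dorsal horn library 21855085 to 29071908, and no 2 libraries of a group agreed within sampling noise. The biological coefficient of variation, the spread of a typical gene between libraries of a group, came to 0.376 for colon libraries and 0.170 for dorsal horn libraries. Counts were also simulated with the spread fitted to genes of similar level. Each gene was drawn independently, without shifts shared across a library, and the changed genes had a mean above 2 CPM. On these counts the test of cancer against sham recovered 31 of 100 genes changed 2-fold and 83 of 100 changed 4-fold in the colon. In the dorsal horn it recovered 86 and 100 of 100. Genes left unchanged made up 6 of the 120 calls in the colon and 13 of the 199 in the dorsal horn. Some libraries stood apart in markers of other cells. In the dorsal horn, the mean of 14 markers of dorsal root ganglion neurons was 6.36 to 7.05 log2 CPM in the 3 nivolumab libraries, 5.45 in cancer 3 against 1.19 and 1.42 in the other cancer libraries, and 5.38 in sham 3 against 1.10 and 1.24 in the other sham libraries. Summed levels of 10 smooth muscle markers in the colon were 3372 to 5196 CPM (counts scaled to library size and by TMM factors) in nivolumab, 7564 to 25196 in cancer and 1575 to 22588 in sham libraries. Each tissue held its own markers, with 10 colonocyte markers summing to 7093 to 21764 CPM in the colon libraries and 10 spinal neuron markers to 5952 to 6683 CPM in the dorsal horn.

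**Figure D1:**
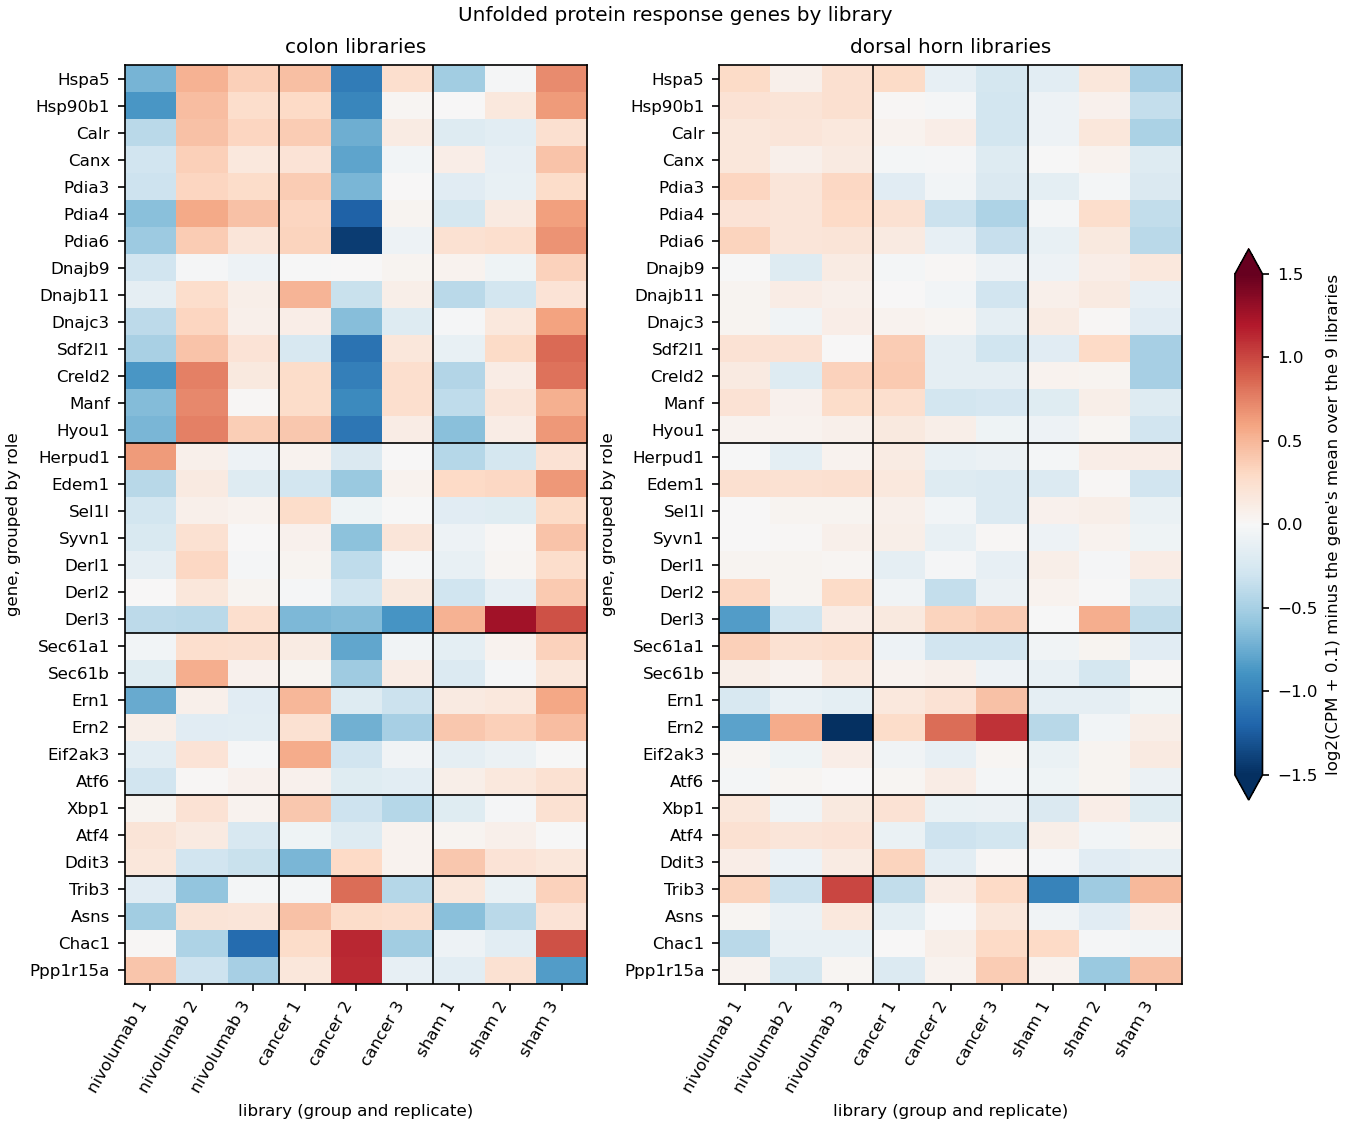
Level of each of the 34 genes in each library, as log2(CPM + 0.1) minus the gene's mean over the 9 libraries of the tissue; columns are libraries, rows are genes with lines between roles, and the colour scale stops at 1.5 in both directions. In the colon, most chaperones are pale to deep blue in cancer 2 and red in sham 3; in the dorsal horn the nivolumab libraries are a light red for most chaperones, Sec61a1 and Atf4, and blue for Ern1.

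The members were first set side by side in sham colon and sham dorsal horn, as a baseline. Most of them were higher in the colon. Of the 34 members 25 passed the test as higher in the colon and 2 as lower, that is 79.4% called against 75.2% of the 14164 genes tested in both tissues. The split by direction differed from that of all genes, of which 38.2% were higher and 37.0% lower, and the members' median log2 fold change was 1.43 against 0.04 over all genes. Tissue and dissection cannot be told apart here, and in bulk samples fewer cells of a type and less RNA per cell cannot be told apart. Levels in this comparison come from a joint scaling of all 18 libraries.

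The chaperones led in abundance. Per kilobase of exon, Calr, the calcium-binding lectin chaperone calreticulin, was the most abundant member in both tissues, with 394 ± 68.0 CPM per kb in sham colon and 119.7 ± 25.9 CPM per kb in sham dorsal horn (SD, n = 3). In the colon it was followed by Pdia3 at 266 ± 45.8, Hsp90b1 at 261 ± 60.7 and Hspa5 at 183 ± 78.3 CPM per kb, whose ranges overlapped one another. In the dorsal horn Canx, the membrane-bound lectin calnexin, came next at 90.1 ± 7.91 CPM per kb and Hsp90b1 at 87.4 ± 12.4, again with overlap. Canx thus stood seventh in the colon and second in the dorsal horn.

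Hspa5, the master chaperone BiP, had 504, 676 and 1143 CPM in the sham colon libraries and 228, 286 and 179.9 CPM in the sham dorsal horn libraries. All 3 colon libraries lay above all 3 of the dorsal horn, although the colon libraries also differed among themselves. The fold was 3.35 (log2 fold change 1.74, SE 0.39, edgeR adjusted p = 0.000874). Of the 14 chaperones 12 were higher in the colon, with log2 fold changes of up to 2.72 for Creld2, a secreted oxidoreductase of the response, and 2.65 for Sdf2l1, a BiP cofactor. The exceptions were Canx (0.21, SE 0.21, adjusted p = 0.363) and the co-chaperone Dnajb9 (−0.14, SE 0.12, adjusted p = 0.309). The call of Hyou1 (0.95, adjusted p = 0.0289), a nucleotide exchange factor of BiP, was lost in 6 of 25 settings, with log2 fold changes from 0.58 to 1.19.

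Among the degradation genes 6 were higher in the colon and 1 was lower. Edem1, a lectin that hands misfolded glycoproteins to degradation, had 219.9, 209 and 271 CPM in sham colon and 26.0, 30.3 and 24.4 CPM in sham dorsal horn. The groups did not overlap, and the fold was 8.69 (log2 fold change 3.12, SE 0.18, adjusted p = 1.43e-09). Derl3, a derlin of the retrotranslocation channel known from secretory cells, was scarce in both, with 7.86, 12.6 and 10.3 CPM against 1.13, 1.70 and 0.853 CPM, an 8.33-fold difference (adjusted p = 1.29e-06). Sel1l, the adaptor of the ubiquitin ligase Syvn1, went the other way, with 126, 119 and 168 CPM in sham colon and 195, 199 and 174 CPM in sham dorsal horn (log2 fold change −0.46, SE 0.13, adjusted p = 0.00575). That call was lost without colon sham 2 (highest adjusted p 0.0684 over the settings). Syvn1 itself was 1.97-fold higher in the colon, so the ligase and its adaptor differed in opposite directions.

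Both translocon subunits were higher in the colon, Sec61b by 12.8-fold and Sec61a1 by 6.59-fold. Of the sensors, Ern2 had 115, 106 and 117 CPM in sham colon and 0.363, 0.502 and 0.556 CPM in sham dorsal horn (log2 fold change 7.88, SE 0.47, adjusted p = 2.17e-09), the largest difference of any member. The counts of Ern2 in the 9 dorsal horn libraries were between 3 and 28, near the floor of 3 counts. Ern1 was 4.07-fold and Atf6 1.53-fold higher in the colon, while Eif2ak3 did not pass (0.20, SE 0.15, adjusted p = 0.243). Xbp1 had 320.0, 339.8 and 413 CPM in sham colon and 51.4, 64.3 and 52.8 CPM in sham dorsal horn, 6.37-fold higher in the colon. Atf4 was 2.31-fold higher (adjusted p = 3.21e-07) and Ddit3 did not pass (0.27, SE 0.23, adjusted p = 0.301).

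The stress targets did not share this direction. Asns, which makes asparagine, had 36.8, 40.8 and 63.7 CPM in sham colon and 96.1, 88.2 and 106 CPM in sham dorsal horn, and was lower in the colon (log2 fold change −1.04, SE 0.20, adjusted p = 0.000234). Trib3 (1.15, SE 0.51, adjusted p = 0.0512), Chac1 (−0.77, SE 0.42, adjusted p = 0.106) and Ppp1r15a (0.40, SE 0.37, adjusted p = 0.337) did not pass. Members with ERSE in the promoter had a median log2 fold change of 1.72 (n = 9, from 0.21 to 3.06), and members whose promoter lacked it had 1.21 (n = 19, from −1.04 to 3.68).

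**Figure D2:**
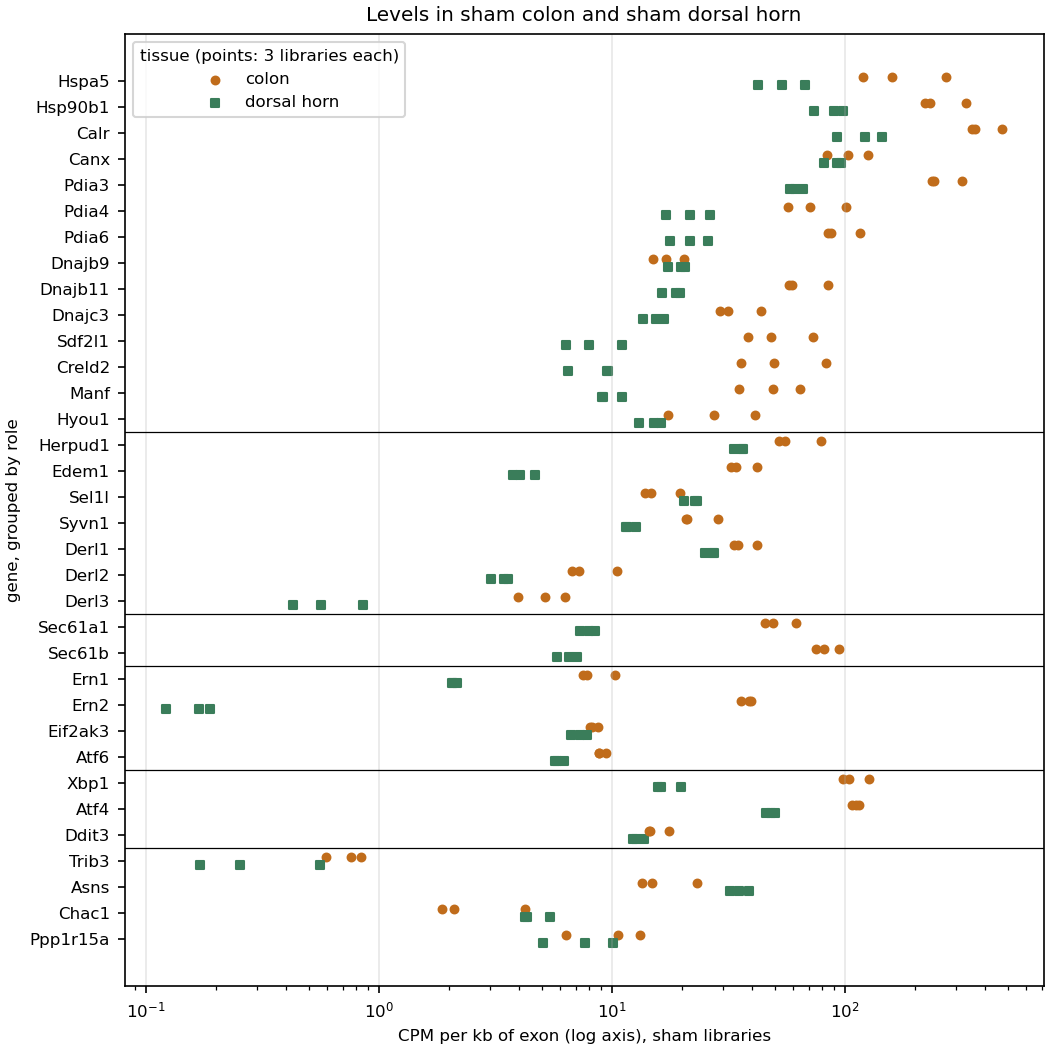
CPM per kb of exon (log axis) of the 34 genes in the 3 sham colon libraries (circles) and the 3 sham dorsal horn libraries (squares). The colon points lie to the right for most genes, farthest for Ern2, Sec61b and Edem1, overlap for Canx, Dnajb9 and Ppp1r15a, and lie to the left for Sel1l, Asns and Chac1.

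Genes of the same pathways outside the 34 gave the surroundings of this pattern. Their counts are read against 38.2% of all genes higher in the colon and 37.0% lower, with a median log2 fold change of 0.04. Counts near these shares are not read as a feature of a list. Of 31 other genes of translocation and secretion 27 were higher in the colon and 3 lower (median log2 fold change 1.14), led by the retrieval receptor Kdelr2 (2.90, SE 0.13, adjusted p = 1.41e-10). Of 23 other ER folding genes 15 were higher and 5 lower (median 0.90), of 21 other degradation genes 12 and 3 (0.30), and of 29 other signalling genes of the response 18 and 5 (0.83). Of 29 other ATF4 targets 10 were higher and 11 lower (−0.03), and of 19 cytosolic heat shock genes, which serve folding outside the ER, 4 were higher and 5 lower (−0.05).

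In the colon, no member passed the test between any pair of groups. The quasi-likelihood test called 0 of the 34 for cancer against sham, 0 for nivolumab against cancer and 0 for nivolumab against sham, and also 0 of all 13445 genes in each (0.0%); the joint test over the 3 groups called 0 members and 2 genes (0.0149%). At an unadjusted p under 0.05, members numbered 3 for cancer against sham (10.9% of all genes), 0 for nivolumab against cancer (9.84%) and 2 for nivolumab against sham (6.45%). DESeq2 called 1 member, Derl3, as lower for cancer against sham (2.86% of all genes) and for nivolumab against sham (1.09%), and 0 for nivolumab against cancer (1.38%). The members' median log2 fold changes were −0.18, 0.16 and −0.03 in that order, against 0.00, 0.03 and 0.03 over all genes.

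Derl3 had the smallest p of all members in the colon. It had 3.97, 3.93 and 6.27 CPM in nivolumab, 3.24, 3.31 and 2.78 CPM in cancer and 7.53, 12.7 and 10.2 CPM in sham libraries. The sham libraries lay above the other 6, and the nivolumab libraries lay above the cancer ones. The log2 fold change was −1.70 for cancer against sham (SE 0.34, adjusted p = 0.173; DESeq2 adjusted p = 5.15e-05) and −1.10 for nivolumab against sham (SE 0.33, adjusted p = 0.620; DESeq2 adjusted p = 0.0402).

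Edem1 had 128, 187 and 149.5 CPM in nivolumab, 141, 116 and 178 CPM in cancer and 211, 211 and 268 CPM in sham libraries. Ern2, the IRE1 of mucus-secreting epithelium, had 89.0, 74.1 and 74.9 CPM in nivolumab, 98.1, 50.7 and 59.3 CPM in cancer and 111, 107 and 116 CPM in sham libraries. Together with Derl3 and Atf6 these were the 4 members with all 3 sham libraries above the other 6, an arrangement found in 2.66% of all genes. For cancer against sham the log2 fold changes were −0.67 for Edem1 (SE 0.21, adjusted p = 0.322), −0.68 for Ern2 (SE 0.23, adjusted p = 0.354) and −0.24 for Atf6 (SE 0.14, adjusted p = 0.543).

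Levels of secretory cell markers are set beside these genes. The sum of 11 plasma cell markers was 1000.1 to 1021 CPM in nivolumab, 569 to 999.98 CPM in cancer and 1759 to 1964 CPM in sham libraries, with none of them at 0 in a whole group. Jchain, the joining chain of secreted antibodies, made up much of that gap, with 224, 165 and 295 CPM in nivolumab, 256, 162 and 88.5 CPM in cancer and 912, 1146 and 1030.1 CPM in sham libraries (log2 fold change −2.61, SE 0.38, adjusted p = 0.0760 for cancer against sham). The sum of 10 goblet cell markers was 4255 to 9969 CPM in nivolumab, 7776 to 29038 CPM in cancer and 24577 to 31060.2 CPM in sham libraries. Single markers did not all follow the sums. For cancer against sham 2 of 11 plasma cell markers had a positive log2 fold change (median −1.37) and 4 of 10 goblet cell markers (median −0.33), and no marker of either list passed the test in the colon. The part of these markers in the levels of Derl3, Edem1 and Ern2 was not tested.

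**Figure D3:**
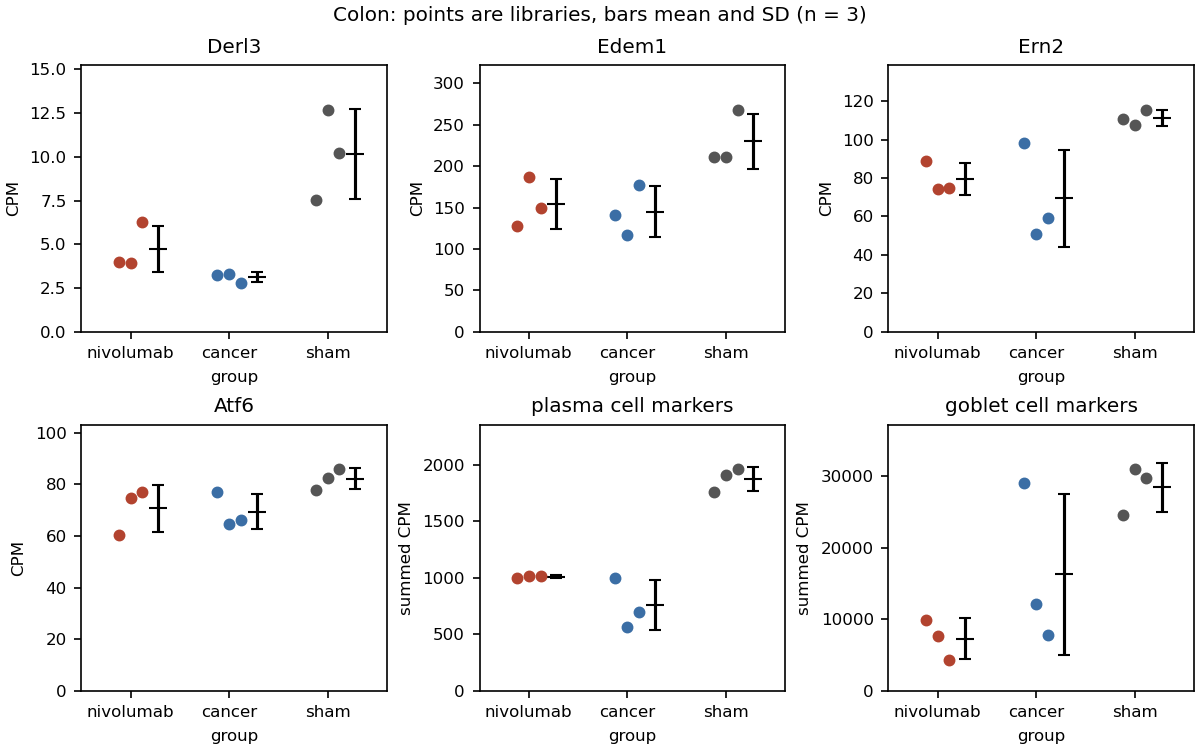
CPM of Derl3, Edem1, Ern2 and Atf6 and summed CPM of plasma cell and goblet cell markers in colon libraries; points are libraries, the bars to their right show mean and SD (n = 3). The sham points lie above the other 6 for all 4 genes and for the plasma cell markers, while cancer 1 lies among the sham libraries for the goblet cell markers.

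The colon chaperones moved together between libraries of the same group. Hspa5 had 426, 993 and 882 CPM in nivolumab, 944, 333 and 823 CPM in cancer and 483, 682 and 1131 CPM in sham libraries. The 3 groups overlapped, and the log2 fold change was −0.13 for cancer against sham (SE 0.47, adjusted p = 0.922) and 0.13 for nivolumab against cancer (SE 0.47, adjusted p = 0.917). Cancer 2 was the lowest of the 9 libraries for 12 of the 14 chaperones and for 20 of the 34 members, against 23.8% of all genes. Sham 3 was the highest for 9 chaperones and 17 members, against 9.04% of all genes. The 14 chaperones summed to 3686, 7089.8 and 6274 CPM in nivolumab, 6648, 2914 and 5509.6 CPM in cancer and 4656, 5179.6 and 7292 CPM in sham libraries, so the spread within each group was wider than any difference between the groups. Sham 3 also had the least smooth muscle signal of the 9 libraries. With the muscle marker mean as a covariate, added after the data were seen, 0 members were called.

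The remaining roles in the colon gave no call either. Dnajc3, an ER co-chaperone, had the smallest p of the chaperones for cancer against sham (−0.48, SE 0.26, adjusted p = 0.532). Sec61a1 had 315, 386 and 381 CPM in nivolumab, 352, 188 and 313 CPM in cancer and 292, 335 and 409.7 CPM in sham libraries, with overlap throughout. Xbp1 had 357, 405 and 361 CPM in nivolumab, 459, 280.4 and 259 CPM in cancer and 307, 343 and 408 CPM in sham libraries. Atf4 had 289, 277 and 213 CPM in nivolumab, 241, 221 and 262 CPM in cancer and 259, 266 and 250.5 CPM in sham libraries, with overlap in all 3 groups. Ddit3 had 24.6, 17.9 and 17.3 CPM in nivolumab, 13.6, 26.9 and 22.7 CPM in cancer and 29.0, 25.2 and 24.6 CPM in sham libraries, also with overlap between each pair of groups. Among the stress targets Asns had the smallest p for cancer against sham, with 74.1, 66.3 and 64.8 CPM in cancer and 35.3, 41.2 and 63.0 CPM in sham libraries (0.56, SE 0.26, adjusted p = 0.478), and 37.9, 62.6 and 61.9 CPM in nivolumab libraries. The cancer libraries lay above the other 6, with the lowest of them just past sham 3. Cancer 2 was the highest library for 3 of the 4 stress targets, against 24.0% of all genes. With 4 genes this is not read as a feature of the role. None of the other pathway lists had a gene past the threshold in the colon. The smallest p of each for cancer against sham belonged to the folding factor Cnpy2 (−0.57, adjusted p = 0.220), Ufd1 of the degradation machinery (0.27, 0.495), the translocon-associated Ssr4 (−0.44, 0.360), the transcription factor Creb3l4 (−0.91, 0.276), the transcription factor Cebpb among ATF4 targets (1.35, 0.294) and the heat shock gene Hspa1b (−1.30, 0.534).

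In the dorsal horn, a few members separated the nivolumab libraries from the cancer libraries, and none passed the test between cancer and sham. For nivolumab against cancer 4 members were higher and 1 was lower, so that 14.7% of the members were called against 17.2% of all 13609 genes, with 8.63% of all genes higher and 8.6% lower. A share this near the background is not a feature of the list. Sec61a1, Atf4, Pdia3 and Derl2 were the higher ones, and Ern1 was the lower one. For nivolumab against sham Pdia3 and Sec61a1 were higher, 2 of 34 members, where 8.51% of all genes were called and 4.67% were higher, and the joint test called Pdia3, Atf4, Sec61a1 and Ern1 (13.9% of all genes). Nivolumab is compared with cancer and with sham in the same fit, and cancer with sham, so these contrasts share libraries. An unadjusted p under 0.05 was found for 8 members in nivolumab against cancer (34.2% of all genes). DESeq2 called Hsp90b1 in addition to the 5 for nivolumab against cancer (23.5% of all genes), and Pdia3, Sec61a1, Hsp90b1 and Edem1 for nivolumab against sham (14.4% of all genes), all as higher but Ern1.

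The nivolumab libraries also differed from the others in cell content, by the markers given above. Scn10a, a sodium channel of sensory ganglion neurons, had 307, 205 and 400.3 CPM in nivolumab, 0.105, 0.114 and 103 CPM in cancer and 0, 0.0789 and 89.4 CPM in sham libraries. The sum of 12 oligodendrocyte markers was 45951 to 51148 CPM in nivolumab, 26297 to 37659 CPM in cancer and 48919 to 60089 CPM in sham libraries. Skeletal muscle markers summed to 195 to 973 CPM in nivolumab, 84.5 to 359.6 CPM in cancer and 91.0 to 249 CPM in sham libraries, and 5 red blood cell markers to 219.5 to 291 CPM in nivolumab, 109 to 221 CPM in cancer and 738 to 1274 CPM in sham libraries. The 14 ganglion markers themselves summed to 3818 to 4942 CPM in nivolumab, 1931 to 2701 CPM in cancer and 2606 to 3316 CPM in sham libraries, and none was at 0 in a whole group. Tissue carried along in dissection and the treatment cannot be told apart where all 3 nivolumab libraries hold more of it than the other 6. The members' levels are also given with the ganglion marker mean as a covariate, and from a fit without sham 3 and cancer 3. The second fit cannot tell ganglion tissue from treatment. Its cancer and sham libraries scored 1.10 to 1.42 log2 CPM, and its nivolumab libraries 6.36 to 7.05. No share of all genes is given for it, so its counts are not read as a feature of a list.

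Atf4, the factor whose translation PERK raises, had 133, 129 and 131 CPM in nivolumab, 106, 91.4 and 93.7 CPM in cancer and 121, 111 and 116 CPM in sham libraries. The 3 groups did not overlap, with sham in the middle. Its log2 fold change was 0.43 for nivolumab against cancer (SE 0.07, adjusted p = 0.00414), −0.26 for cancer against sham (SE 0.07, adjusted p = 0.153) and 0.18 for nivolumab against sham (SE 0.07, adjusted p = 0.129). The call for nivolumab against cancer was kept in all 18 settings, with log2 fold changes from 0.39 to 0.50.

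Pdia3, a disulfide isomerase that works with calreticulin and calnexin, had 272, 247 and 268 CPM in nivolumab, 193, 212 and 186 CPM in cancer and 196, 213 and 187 CPM in sham libraries. All 3 nivolumab libraries lay above the other 6, while cancer and sham covered the same range. The log2 fold change was 0.41 against cancer (SE 0.07, adjusted p = 0.00585) and 0.40 against sham (SE 0.07, adjusted p = 0.0126). The first call was kept in all 18 settings, from 0.38 to 0.53, and the second was lost without sham 1 and without nivolumab 1 (highest adjusted p 0.0621).

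Sec61a1, the pore subunit of the translocon, had 72.5, 66.0 and 67.2 CPM in nivolumab, 53.7, 46.2 and 46.2 CPM in cancer and 54.5, 57.9 and 50.4 CPM in sham libraries. The nivolumab libraries again lay above the other 6. The log2 fold change was 0.49 against cancer (SE 0.08, adjusted p = 0.00567), kept in all 18 settings (0.45 to 0.62), and 0.34 against sham (SE 0.08, adjusted p = 0.0374), which was lost in 7 of 18 settings: without each of the sham and nivolumab libraries in turn and without sham 3 and cancer 3 together. Exons of Sec61a1 share 549 bases with Gm44170 on the other strand, and the strand setting of the counts is not given in the sources used here. Sec61b, the small translocon subunit, did not pass (0.08, SE 0.12, adjusted p = 0.668).

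Derl2, a derlin that is present in most tissues, had 35.3, 29.3 and 34.7 CPM in nivolumab, 27.3, 22.2 and 26.8 CPM in cancer and 29.4, 28.4 and 24.9 CPM in sham libraries. Its log2 fold change of 0.38 against cancer (SE 0.11, adjusted p = 0.0429) was the weakest call and was lost in 8 of 18 settings, with adjusted p up to 0.146. Derl2 shares 231 exon bases with Mis12 on the other strand.

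Ern1, the IRE1 sensor, was the member that fell. It had 16.1, 17.6 and 17.2 CPM in nivolumab, 21.2, 22.1 and 25.8 CPM in cancer and 17.3, 17.2 and 18.2 CPM in sham libraries. The cancer libraries lay above the other 6, and the ranges of nivolumab and sham overlapped in part. The log2 fold change was −0.44 for nivolumab against cancer (SE 0.10, adjusted p = 0.0159), lost without nivolumab 1 and without nivolumab 3 (adjusted p up to 0.0711). For cancer against sham it was 0.39 (SE 0.10, adjusted p = 0.136). Ern1 and Atf4 thus lay on opposite sides of sham in the cancer libraries.

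**Figure D4:**
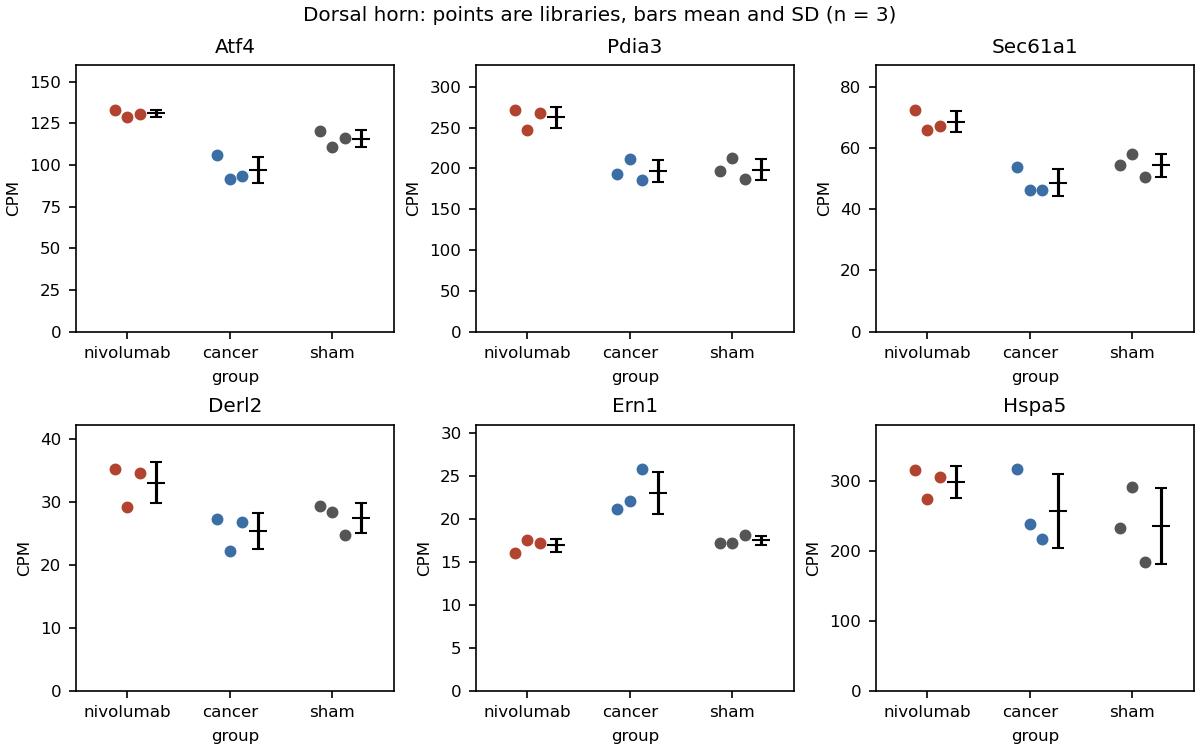
CPM of the 5 members called for nivolumab against cancer, and of Hspa5, in dorsal horn libraries; points are libraries and the bars to their right show mean and SD (n = 3). Atf4, Pdia3 and Sec61a1 are highest in the 3 nivolumab libraries, Ern1 is highest in the 3 cancer libraries, and the groups overlap for Hspa5.

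For cancer against sham the count was 0 of 34 members, against 0.323% of all genes (0.0955% higher and 0.228% lower); at an unadjusted p under 0.05 there were 3 members, Ern1, Atf4 and Derl1 (13.1% of all genes). DESeq2 called Ern1 (adjusted p = 0.0285) and Atf4 (adjusted p = 0.0483), with 2.65% of all genes called, and the fit with the ganglion marker mean called 1 member, Ern1, as higher (2.86% of all genes). The members' median log2 fold change was 0.04, against 0.01 over all genes.

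The other chaperones leaned to nivolumab without passing. Of the 14 chaperones 13 had a positive log2 fold change for nivolumab against cancer, with a median of 0.20 against 0.00 over all genes, and only Pdia3 passed. With the replicate number as a block Hsp90b1 (0.31, SE 0.08, adjusted p = 0.0289) and Canx (0.21, SE 0.06, adjusted p = 0.0403) passed as well, so that 7 members were called (22.5% of all genes). Hspa5 had 316, 274 and 306 CPM in nivolumab, 318, 238 and 217 CPM in cancer and 232, 292 and 184 CPM in sham libraries (0.21, SE 0.19, adjusted p = 0.453, against cancer). Hsp90b1, the ER form of HSP90, had 452, 446 and 460.0 CPM in nivolumab, 394, 386 and 321 CPM in cancer and 369, 406 and 305 CPM in sham libraries (0.30, SE 0.11, adjusted p = 0.0797). Hsp90b1 was called for the same contrast by DESeq2 (adjusted p = 0.0392) and in the fit without sham 3 and cancer 3. All 3 nivolumab libraries lay above all 3 cancer libraries for 11 members, against 20.6% of all genes, and below them for 3 (Derl3, Ern1 and Chac1), against 19.5%. They lay above all other 6 libraries for 7 members, namely Hsp90b1, Canx, Pdia3, Pdia6, Edem1, Sec61a1 and Atf4, against 11.2% of all genes.

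Within the cancer and sham groups the chaperones were low in the libraries with ganglion signal. Sham 3 was the lowest of the 9 libraries for 8 of the 14 chaperones, against 12.1% of all genes, and cancer 3 for 4, against 14.2%. The chaperones summed to 2525, 2398 and 2509 CPM in nivolumab, 2292, 2169 and 1868 CPM in cancer and 2097, 2346 and 1774 CPM in sham libraries, the third value of each of the last 2 groups being the library with ganglion markers. The nivolumab libraries all had high ganglion signal, and their chaperone sums were above those of every cancer and sham library. Sham 3 and cancer 3 were also the lowest of their groups in summed oligodendrocyte markers, with 48919 and 26297 CPM. The same held for summed Schwann cell, astrocyte and microglia markers. It did not hold for summed spinal neuron markers, where sham 3 was the highest of its group (6486 CPM) and cancer 3 the middle one (6526 CPM). The order within the cancer and sham groups rests on sham 3 and cancer 3 alone, and its cause was not tested.

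With the ganglion marker mean as a covariate, 13 members were called for nivolumab against cancer (22.5% of all genes), 11 of them higher. These were Hsp90b1, Calr, Canx, Pdia3, Pdia4, Pdia6, Dnajb11, Edem1, Sel1l, Sec61a1 and Atf4. Ern1 and Ppp1r15a, the regulatory subunit that restores translation, were lower. The log2 fold change became 0.61 for Hsp90b1 (SE 0.08, adjusted p = 0.000519), 0.62 for Calr (SE 0.10, adjusted p = 0.00156) and 0.83 for Pdia4 (SE 0.21, adjusted p = 0.0253), while those of Atf4 (0.46, adjusted p = 0.00671), Sec61a1 (0.62, adjusted p = 0.00289) and Pdia3 (0.53, adjusted p = 0.00215) stayed past the threshold and that of Derl2 did not (0.40, adjusted p = 0.0932). Against sham 10 members were called in that fit (15.5% of all genes), all higher, among them Hspa5 (0.77, SE 0.21, adjusted p = 0.0469). The nivolumab scores lie outside the range of the other 6 libraries, so these values rest on an extrapolation from the slope that sham 3 and cancer 3 set. Without those 2 libraries 6 members were called for nivolumab against cancer, Hsp90b1 beside the 5 above. For nivolumab against sham 2 were called, Hsp90b1 and Pdia3. The share of all genes called in that fit is not given, so these counts are not read as a feature of the list.

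**Figure D5:**
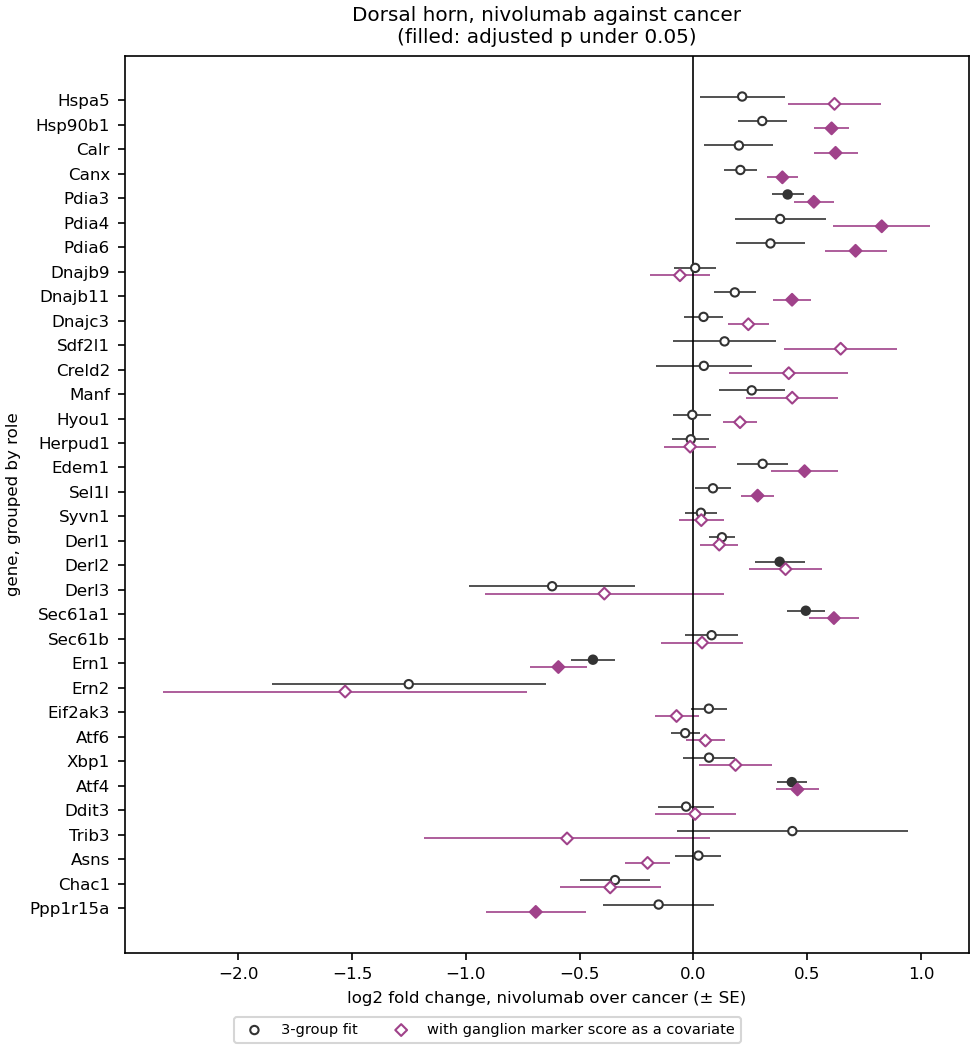
Log2 fold change (± SE) of the 34 genes in the dorsal horn for nivolumab over cancer, from the fit of the 3 groups (circles) and from the fit that adds the ganglion marker mean as a covariate (diamonds); filled symbols have an adjusted p under 0.05. Filled circles mark 5 genes and filled diamonds 13, and most chaperone diamonds lie farther to the right than their circles.

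No stress factor other than Atf4 and no stress target passed the test for nivolumab against cancer. Ddit3, the factor CHOP, had 26.0, 23.0 and 26.4 CPM in nivolumab, 30.6, 21.7 and 24.6 CPM in cancer and 24.0, 21.6 and 22.2 CPM in sham libraries (−0.03, SE 0.12, adjusted p = 0.877, against cancer). Xbp1 had 68.8, 59.1 and 67.5 CPM in nivolumab, 71.3, 57.3 and 57.6 CPM in cancer and 52.4, 65.6 and 54.0 CPM in sham libraries (0.07, SE 0.12, adjusted p = 0.709). Both overlapped in all 3 groups. Of the stress targets, Chac1, a glutathione-degrading enzyme, had the smallest p, with 5.54, 6.79 and 6.81 CPM in nivolumab, 7.40, 7.84 and 9.10 CPM in cancer and 9.04, 7.25 and 7.13 CPM in sham libraries (−0.34, SE 0.16, adjusted p = 0.150). Asns was at 0.02 (SE 0.10, adjusted p = 0.899), Ppp1r15a at −0.15 (SE 0.24, adjusted p = 0.695) and Trib3, at under 2 CPM in all 9 libraries, at 0.43 (SE 0.51, adjusted p = 0.577). With the ganglion marker mean as a covariate Ppp1r15a was lower (−0.69, SE 0.22, adjusted p = 0.0465), and the values of Trib3 (−0.56, adjusted p = 0.564) and Asns (−0.20, adjusted p = 0.173) turned negative without passing. A p that misses the threshold does not show that a level was unchanged.

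Among related genes outside the 34, those of the cytosolic heat shock response were called most often in the dorsal horn. Of 19 such genes 9 were higher for nivolumab against cancer (8.63% of all genes) and none lower (8.6%), with a median of 0.34. For nivolumab against sham 7 were higher (4.67% of all genes). Bag3, a co-chaperone (0.95, SE 0.12, adjusted p = 0.00200), Hspa8, the constitutive HSP70 (0.46, SE 0.06, adjusted p = 0.00231), the HSP90 partner Fkbp4 (0.55, SE 0.08, adjusted p = 0.00289) and the HSP40 Dnaja1 (0.45, SE 0.07, adjusted p = 0.00458) had the smallest adjusted p. Their list summed to 8335 to 9343 CPM in nivolumab, 6775 to 7089 CPM in cancer and 7521 to 7755 CPM in sham libraries. The groups did not overlap. Among single genes, 20.6% of all had the 3 nivolumab libraries above the 3 cancer libraries. For cancer against sham only Hspa8 passed, and it was lower (−0.36, SE 0.06, adjusted p = 0.0423). With the ganglion marker mean as a covariate 12 of the 19 were higher for nivolumab against cancer and 8 for nivolumab against sham. In that fit 22.5% and 15.5% of all genes were called, in either direction. Without sham 3 and cancer 3 the counts were 12 and 7. They have no share of all genes beside them, so they are not read as a feature of the list.

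For nivolumab against cancer the calls in the other lists are read against 17.2% of all genes. Of 23 other ER folding genes 4 were higher and 2 lower, among them Creld1 (0.48, adjusted p = 0.00450) and the calnexin relative Clgn (0.77, adjusted p = 0.00458) as higher and Txndc11 (−0.42, adjusted p = 0.0127) and Calr3 (−0.90, adjusted p = 0.0180) as lower. Of 21 other degradation genes 2 were higher, the ATPase Vcp that extracts proteins from the ER (0.34, adjusted p = 0.00396) and Fam8a1 (0.29, adjusted p = 0.0193). Of 31 translocation and secretion genes 3 were higher, namely the oligosaccharyltransferase Stt3a (0.49, adjusted p = 0.00396), Srp19 of the signal recognition particle (0.25, adjusted p = 0.0386) and the coat subunit Sec23b (0.28, adjusted p = 0.0465). Of 29 other signalling genes 2 were higher, Bcap31 (0.32, adjusted p = 0.00900) and Nfe2l2 (0.62, adjusted p = 0.0308), and 2 lower, the kinase Eif2ak4 that senses amino acid lack (−0.38, adjusted p = 0.00495) and Crebrf (−0.46, adjusted p = 0.0366). Of 28 other ATF4 targets none was higher and 1 was lower, Sesn2 (−0.46, adjusted p = 0.00897). Several of these counts differed in the fit with the ganglion marker mean, where 22.5% of all genes were called. The translocation and secretion list then had 10 higher, the ATF4 targets 4 higher and 3 lower, the degradation genes 3 higher and 2 lower and the signalling genes 3 higher and 3 lower, while the ER folding genes again had 4 higher and 2 lower. Without sham 3 and cancer 3 the degradation genes had 4 higher, the translocation genes 4 higher and the ATF4 targets 2 higher and 1 lower. No share of all genes is given for that fit, so these counts are not read as features of the lists.

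For nivolumab against sham, where 8.51% of all genes were called, the same lists held 2 higher ER folding genes, 1 degradation gene (Vcp, 0.29, adjusted p = 0.0131), 1 translocation gene (Stt3a, 0.36, adjusted p = 0.0201), 2 signalling genes, and, of the ATF4 targets, 1 higher and 1 lower. The folding genes were Pdia5 (1.19, adjusted p = 0.0310) and Creld1 (0.29, adjusted p = 0.0433), and the signalling genes were Map3k5 (0.37, adjusted p = 0.0303) and Eif2ak2 (0.56, adjusted p = 0.0314). The ATF4 targets were Slc7a1 as higher (0.25, adjusted p = 0.0459) and Sesn2 as lower (−0.43, adjusted p = 0.0187). In the fit with the ganglion marker mean, where 15.5% of all genes were called, the ER folding genes had none called, the degradation genes 1 higher and 3 lower, the translocation genes 4 higher and 1 lower, the signalling genes 1 higher and 2 lower and the ATF4 targets 2 higher and 3 lower. Without sham 3 and cancer 3 the translocation genes had 2 higher, the signalling genes 1 higher and the ATF4 targets 3 higher and 2 lower. These counts, given without a share of all genes, are not read as features of the lists.

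Whether the members responded differently in the 2 tissues was tested with an interaction term in a fit of all 18 libraries. For cancer against sham, colon minus dorsal horn, 0 members were called, with 0.155% of all genes called; Derl3 had the smallest p (−1.86, SE 0.46, adjusted p = 0.144), and DESeq2 called it alone (adjusted p = 0.00457, with 2.36% of all genes called). An unadjusted p under 0.05 was found for 4 members and 10.9% of all genes. For nivolumab against cancer 0 members were called, with 0.127% of all genes called and 3 members at an unadjusted p under 0.05 (16.4% of all genes). Derl3 (1.15, SE 0.46, adjusted p = 0.240), Ern2 (1.37, SE 0.57, adjusted p = 0.258) and Atf4 (−0.39, SE 0.17, adjusted p = 0.268) had the smallest p. The differences seen in 1 tissue and not in the other are therefore not shown to differ between the tissues.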

How the data were processed

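The series' design text names Illumina NovaSeq sequencing, and the labels' protocols name TRIzol extraction and SmartScribe reverse transcription. The submitters' processing notes list the GRCm38 build and the tools HISAT2, StringTie, Trimmomatic and FastQC 0.11.5. The values deposited by the authors are raw counts, whole numbers for each gene, in a separate table for each tissue. How reads were counted, with which annotation and strand setting, is not given in the sources used here. Genes were matched by symbol to the GENCODE annotation of GRCm38 for position and exon length.

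Each tissue was fitted with its 9 libraries, and both tissues together with all 18, with edgeR 4.0.16 under R 4.3.3, using its quasi-likelihood test (TMM scaling, default expression filter by group, robust dispersion, two-sided). P-values were adjusted by the Benjamini-Hochberg method over every gene in the fit and called under 0.05. The SE of an edgeR log2 fold change was derived as its absolute value divided by the square root of the F statistic. CPM values are TMM-scaled within a tissue unless stated. The ganglion score is a mean of log2 CPM with a prior count of 2. Alternatives were DESeq2 1.42.0, other scalings, no filter, a replicate block, only the groups compared, leaving out libraries, and marker scores as covariates. The procedure was tested on simulated counts. Same-numbered nivolumab and cancer libraries of the dorsal horn deviated together from their group means (correlation 0.190 to 0.276 in the 3 pairs), though no label says what a number marks, so values with the replicate block are given for that contrast.

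A floor of 3 counts was 0.0974 to 0.144 CPM per library, and such limits cover counting error only. The members, the related gene lists, the marker lists and the naming rule were chosen with earlier results of these data known. All 34 members were accounted for. Within a tissue, values in every library are given for members past the threshold and for Hspa5, Xbp1, Atf4 and Ddit3. They are also given for those with the smallest p in roles without a call, except Dnajc3 in the colon. For sham colon against sham dorsal horn, values by library are given for only some of the called members. Edem1, Ern2 and Hsp90b1 were added after their values were seen, as was Jchain. Of each related list up to 4 genes past the threshold, or else 1, were named.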

Additional observations from a re-analysis of the deposited data

How the results depend on the processing

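No called value of a member changed sign: of 5814 values of single members under the alternatives, 5335 kept their sign and side of the threshold, 26 lost their call and 53 gained one, while 400 changed sign without passing the threshold in either fit. Other scalings and omission of the filter left the counts of called members within 1.5 times. DESeq2 called 1 member in the colon for cancer against sham, 1 for nivolumab against sham and 1 in the joint test; in the dorsal horn it called 2 for cancer against sham, 4 for nivolumab against sham and 7 in the joint test, and 1 for the difference of cancer response between tissues. Fitting only nivolumab and sham in the dorsal horn gave 4. The ganglion marker covariate gave 1 for cancer against sham, 13 for nivolumab against cancer, 10 for nivolumab against sham and 12 in the joint test. Leaving out 1 library at a time, the dorsal horn counts ran from 3 (without nivolumab 1 or nivolumab 3) to 8 (without cancer 1) for nivolumab against cancer, from 0 (without sham 1 or nivolumab 1) to 3 for nivolumab against sham, with 1 without each of sham 2, sham 3, nivolumab 2 and nivolumab 3, and from 1 (without nivolumab 1) to 6 in the joint test; sham colon against sham dorsal horn ran from 26 to 28, and all other counts stayed at 0. The cause of these changes was not tested. The share of all genes called also moved with the setting. For nivolumab against cancer in the dorsal horn it was 17.2% in the main fit and 23.5% in DESeq2. It was 22.5% with the ganglion marker covariate and 22.5% with the replicate block. It is not given for every setting, so these counts are not read as changes particular to the members. No label says what a replicate number marks, and the correlations did not settle whether numbers pair the samples. Over all groups, deviations of same-numbered libraries correlated from −0.44 to 0.46 in the colon and from −0.08 to 0.53 in the dorsal horn. The value of 0.53 was that of sham 3 with cancer 3. In the colon 3 of 9 libraries correlated best with their own number, and in the dorsal horn 5 of 9. With the replicate block the dorsal horn counts were 7 for nivolumab against cancer, 3 for nivolumab against sham and 5 in the joint test, that of sham colon against sham dorsal horn was 28, and the others were 0. In the counts simulated for the colon, most 2-fold changes were missed.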
